A study of Mus musculus with 4 samples.

Results

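Cholesterol and fatty acid synthesis genes were followed in mouse embryonic stem cells (ESCs) with and without *Bmal1*, the gene of a core circadian transcription factor that the annotation calls *Arntl*. The set holds 32 genes, taken by symbol from the deposited expression tables of 19645 features, with symbols of merged features read one by one. It covers 7 steps up to farnesyl diphosphate, 11 later sterol steps, 5 regulators of sterol sensing, 2 genes of sterol transport and esterification, 2 efflux pumps and 5 fatty acid enzymes. All 32 had a mean above the minimum of 0.5 FPKM used for testing, as 12990 features did. FPKM, a fragment count scaled to transcript length and library size, is a level per length, so that levels of different genes can be set side by side.

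RNA was sequenced from 2 libraries of wild-type (WT) ESCs and 2 libraries of *Bmal1* knockout (KO) ESCs, with no treatment in either group. The KO cells were made with CRISPR-Cas9 and carry a frameshift deletion in exon 5. They are 1 picked clone, and both groups were grown on gelatin in serum medium with leukaemia inhibitory factor. The paper calls the libraries of a group biological replicates, but the labels name no separate cultures. Effects of genotype, clone and culture cannot be told apart, and every p value measures only the spread between the libraries.

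Cells build cholesterol from acetyl-CoA through mevalonate, farnesyl diphosphate, squalene and lanosterol, and fatty acids from the same acetyl-CoA through malonyl-CoA. Both routes are driven by the SREBP transcription factors, which the escort protein SCAP carries to the Golgi for cleavage when sterols are scarce, and which the INSIG proteins hold in the endoplasmic reticulum when sterols are plentiful. Sterol excess is met by the LXR nuclear receptors, which induce the efflux pumps ABCA1 and ABCG1, and by esterification through SOAT1. The comparison asked whether the synthesis genes and the efflux genes differed between WT and KO cells, and in which direction.

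The sequences before the starts of 5 of the genes are printed here because the pathway is controlled through such sites. *Abca1* and *Soat1* were the genes that rose, and *Ebp* and *Elovl6* are examples of those that fell. *Hmgcs1* was the only searched gene with an exact match to the sterol element. Each is the 250 bases before the RefSeq start (GRCm38.p6), 5′ to 3′ on the strand of the gene, and capitals mark matches to the motifs named after them. They lie at chr4:53159896-53160145 on the minus strand (*Abca1*), chr1:156474329-156474578 on the minus strand (*Soat1*), chrX:8193513-8193762 on the minus strand (*Ebp*), chr3:129532136-129532385 on the plus strand (*Elovl6*) and chr13:119690101-119690350 on the plus strand (*Hmgcs1*).
Abca1: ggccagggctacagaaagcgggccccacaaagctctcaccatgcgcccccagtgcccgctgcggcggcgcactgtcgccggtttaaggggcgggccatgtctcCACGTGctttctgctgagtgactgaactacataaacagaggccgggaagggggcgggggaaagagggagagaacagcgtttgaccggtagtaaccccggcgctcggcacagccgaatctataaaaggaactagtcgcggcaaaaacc
Soat1: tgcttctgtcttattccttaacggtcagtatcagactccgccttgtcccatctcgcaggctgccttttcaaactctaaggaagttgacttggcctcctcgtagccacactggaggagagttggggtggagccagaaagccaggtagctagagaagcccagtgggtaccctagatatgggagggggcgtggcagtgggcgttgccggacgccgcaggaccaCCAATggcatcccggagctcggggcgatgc
Ebp: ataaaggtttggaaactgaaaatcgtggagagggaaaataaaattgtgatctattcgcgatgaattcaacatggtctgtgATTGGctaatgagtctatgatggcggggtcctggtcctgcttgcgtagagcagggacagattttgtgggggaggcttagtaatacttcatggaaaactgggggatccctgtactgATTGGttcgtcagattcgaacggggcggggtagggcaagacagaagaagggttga
Elovl6: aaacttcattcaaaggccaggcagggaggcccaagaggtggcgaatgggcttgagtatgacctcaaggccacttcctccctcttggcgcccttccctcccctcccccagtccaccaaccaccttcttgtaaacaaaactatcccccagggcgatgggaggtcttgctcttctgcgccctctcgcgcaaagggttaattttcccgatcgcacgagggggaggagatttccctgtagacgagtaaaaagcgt
Hmgcs1: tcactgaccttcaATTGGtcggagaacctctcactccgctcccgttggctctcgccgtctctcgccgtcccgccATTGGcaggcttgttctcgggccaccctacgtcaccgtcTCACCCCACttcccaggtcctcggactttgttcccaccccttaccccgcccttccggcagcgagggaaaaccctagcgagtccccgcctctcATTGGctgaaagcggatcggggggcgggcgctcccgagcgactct

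Of the 32 genes, 25 had a start in the RefSeq table, with 33 starts in all; *Fdps*, *Fdft1*, *Sqle*, *Stard4*, *Abcg1*, *Scd1* and *Scd2* were not matched. Windows of 300 bases, 250 before and 50 after each start, were searched on both strands. The sterol regulatory element TCACNCCAC, which SREBPs bind, was found in *Hmgcs1* alone among the 25, 137 bases before the start, and in 1.43% of the promoters of tested genes. The CCAAT box, bound by NF-Y, was found in 20 of the 25 genes (80%), against 43.6% of the promoters of tested genes and 41.1% of all promoters in the table. *Soat1* has it 30 bases before the start, *Ebp* 170 and 55 bases before, and *Hmgcs1* at 4 places in its window. Neither *Abca1* nor *Elovl6* has one there. The E-box CACGTG, the site that BMAL1 binds with its partner CLOCK and that other bHLH factors also bind, was found in 6 of the 25 genes (24%), against 12.3% of the promoters of tested genes. These were *Abca1*, *Dhcr7*, *Hsd17b7*, *Insig1*, *Sc5d* and *Scap*, and in *Abca1* the E-box begins 147 bases before the start. The LXR element, a direct repeat of AGGTCA with 4 bases between the copies, had no exact match in any of the 25. It was found in 0% of the promoters of tested genes and in 0.0148% of all promoters in the table. Only exact matches were counted, so the search cannot tell whether looser sites of any motif are present. In *Fasn* a CCAAT box on 1 strand overlaps one on the other, while no match of 1 motif overlaps a match of another. A match is a description of the sequence, not of binding.

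*Arntl* itself had 6.05 and 6.29 FPKM in WT replicates 1 and 2 and 5.95 and 5.92 FPKM in KO replicates 1 and 2, so its transcript level does not tell the genotypes apart. Of its known targets, *Dbp* had 1.65 and 1.499 FPKM in WT and 4.40 and 4.17 FPKM in KO (log2 fold change 1.39, adjusted p = 0.00576 by limma), and *Nr1d1* had 4.26 and 2.96 FPKM in WT and 4.82 and 4.29 FPKM in KO (0.35, adjusted p = 0.295). The pluripotency markers summed to between 5593 and 6044 FPKM in each library, most of it *Dppa5a* and *Pou5f1*; among them *Klf4* fell (log2 fold change -0.46, adjusted p = 0.0177 by limma) and *Tfcp2l1* rose (0.39, adjusted p = 0.0259). The fibroblast collagens *Col1a1*, *Col1a2* and *Col3a1* were at or under 0.217 FPKM in every library. The primed epiblast markers summed to 75.5 and 74.8 FPKM in WT and 48.8 and 46.1 FPKM in KO, and of the 3 of 5 that were tested 2 fell and 1 rose. The primitive endoderm list summed to 84.1 and 80.6 FPKM in WT and 67.2 and 65.8 FPKM in KO, with its defining *Gata6* and *Sox17* at or under 0.168 FPKM. The fall of that sum lay in *Sparc* and *Lamb1*. Together with *Gata4* they were lower in both KO libraries than in either WT library (3 of the 10 genes, against 31.7% of all tested features). Another 5, *Sox7*, *Dab2*, *Pdgfra*, *Foxa2* and *Col4a1*, were higher in both. The shares with KO higher in both were 27% of all tested features and 21.4% of features under the minimum. All of the 5 but *Col4a1* lay under the minimum of 0.5 FPKM. *Sox7* had a mean of 0.253 FPKM in WT and 0.668 FPKM in KO, and *Pdgfra* 0.0403 and 0.0840 FPKM. The fibroblast list, mostly *Fn1*, summed to 74.8 and 69.2 FPKM in WT and 107 and 96.6 FPKM in KO. Between 18.1% and 37.3% of the FPKM of a library fell in features with no symbol, most in WT replicate 2. The Y-linked *Eif2s3y* had 1.40 and 2.04 FPKM in WT and 44.6 and 53.1 FPKM in KO, and *Ddx3y* 0.235 and 0.403 FPKM in WT and 16.4 and 20.6 FPKM in KO (adjusted p = 0.00115 for each by limma), with *Uty* likewise higher in KO. The WT and KO libraries thus differed in Y-linked transcripts as well as in genotype, and the effect of *Bmal1* cannot be told apart from that of other differences between the cells. The part of these genes and markers in the results given here was not tested. No read number can be had from FPKM, so the depth is unknown.

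Most genes of the set that passed the test were enzymes of synthesis, and these fell in KO. Enzymes of synthesis make up 23 of the 32 genes. At an adjusted p under 0.05 (limma, Benjamini-Hochberg over the 12990 features), 7 of the 32 genes fell in KO and 2 rose. The 7 were *Fdps*, *Sqle*, *Ebp*, *Acaca*, *Elovl6*, *Scd1* and *Scd2*, from 23 enzymes of synthesis of which none rose, and the 2 were *Abca1* and *Soat1*. The share that fell was 21.9%, against 5.6% of all tested features, while the share that rose was 6.25%, near the 6.85% of all tested features, and 12.5% of all tested features passed in either direction. Both KO libraries were below both WT libraries for 17 of the 32 genes (53.1%), against 31.7% of all tested features, and above both for 6, against 27% of all tested features. The remaining 9 overlapped. Whatever their p, 23 of the 32 had a negative log2 fold change, against 53.2% of all tested features. The median log2 fold change of the 32 was -0.16, beside -0.02 over all tested features. Only *Abca1* changed by more than 2-fold at that threshold, as 4.14% of all tested features did; 2.72% of all tested features rose by more than 2-fold. Without the variance trend of limma, 1 of the 7 passed, *Scd1*, which is 3.12% of the 32 against 3.52% of all tested features, so the share that fell was then no higher than in all features. Without the minimum level 3 passed, 9.38% against 1.93%. In bulk RNA, fewer cells of a type and less RNA per cell cannot be told apart. The genes were picked with earlier results of these data known, so these counts describe them and are no test of the set.

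**Figure D1:**
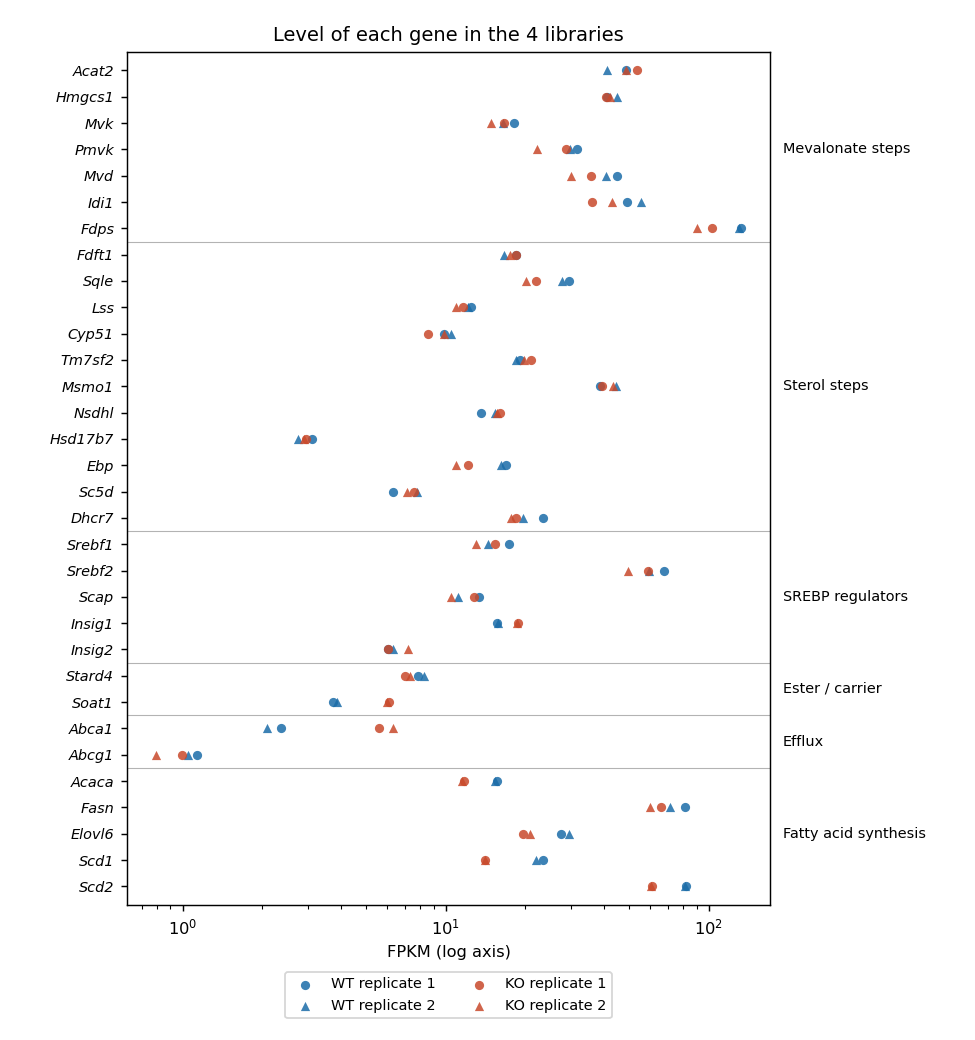
Levels of the 32 genes in FPKM (log axis) in each of the 4 libraries, with a row per gene and the genes grouped by role; blue marks WT, red marks KO, circles replicate 1 and triangles replicate 2. The KO points lie left of both WT points in all 5 fatty acid rows and right of them for *Abca1* and *Soat1*.

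The first 7 steps lead from acetyl-CoA to farnesyl diphosphate. *Acat2*, the cytosolic thiolase that joins acetyl-CoA units, had 48.5 and 41.1 FPKM in WT and 53.7 and 48.7 FPKM in KO (log2 fold change 0.20, adjusted p = 0.283 by limma). *Hmgcs1*, the HMG-CoA synthase, was the only searched gene with an exact match to the sterol element. It had 41.1 and 44.9 FPKM in WT and 40.8 and 42.3 FPKM in KO. Its groups overlapped, and the log2 fold change was -0.05 (standard error 0.08, 95% interval -0.25 to 0.15, adjusted p = 0.728 by limma). *Mvk*, mevalonate kinase, had 18.2 and 16.6 FPKM in WT and 16.7 and 14.9 FPKM in KO, with overlap. The phosphomevalonate kinase *Pmvk* had 31.7 and 29.8 FPKM in WT and 28.7 and 22.2 FPKM in KO, below WT in both KO libraries (-0.28, adjusted p = 0.219 by limma).

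Lower levels in both KO libraries were seen at the end of this stretch. *Mvd*, the decarboxylase that makes isopentenyl diphosphate, had 45.0 and 40.7 FPKM in WT and 35.9 and 29.9 FPKM in KO (log2 fold change -0.39, adjusted p = 0.0836 by limma). *Idi1*, the isomerase of that product, had 49.2 and 55.3 FPKM in WT and 36.1 and 42.8 FPKM in KO (-0.41, adjusted p = 0.0731). For both, the KO libraries lay below the WT libraries, but the adjusted p missed the threshold. *Fdps*, farnesyl diphosphate synthase (chr3:89093573-89101967), was the most abundant gene of the set with 133 and 129.9 FPKM in WT and 103 and 90.2 FPKM in KO. It fell from 131 ± 2.03 to 96.6 ± 9.09 FPKM (SD, n = 2); the change on the log2 scale was -0.45 ± 0.09 (SE, adjusted p = 0.0300 by limma). Of the 50-base stretches of its transcript, 86.4% occur in transcripts of other annotated genes, *Gm43738*, *Gm3571* and *Gm5873*, so the assignment of its reads is uncertain. *Acat2* shares 45.9% with *Acat3*, and *Idi1* 21.3% with 3 other annotated genes. Of the 7 genes, 6 had a negative log2 fold change, against 53.2% of all tested features. Only 1, *Fdps*, passed the test (14.3%, against 5.6% of all tested features that fell), and the median was -0.28.

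From farnesyl diphosphate on, the 11 sterol steps held both genes that fell and genes with near-equal levels. *Fdft1*, squalene synthase, had 18.5 and 16.7 FPKM in WT and 18.6 and 17.6 FPKM in KO, with overlap, and 18.3% of its exon bases lie under exons of *Ctsb*. *Sqle*, squalene epoxidase and a rate-limiting enzyme of the sterol branch (chr15:59315092-59601685), had 29.5 and 27.8 FPKM in WT and 22.1 and 20.3 FPKM in KO. It fell from 28.6 ± 1.18 to 21.2 ± 1.26 FPKM (SD, n = 2), or -0.43 ± 0.09 in log2 (SE, adjusted p = 0.0306 by limma). The feature that carries its symbol spans 17.8 times the length of the annotated gene and covers *Nsmce2* and *Washc5*, although none of its exon bases overlap exons of another gene. The next enzymes close and trim the ring system. *Lss*, lanosterol synthase, had 12.5 and 12.2 FPKM in WT and 11.7 and 10.9 FPKM in KO. *Cyp51*, lanosterol demethylase, had 9.86 and 10.5 FPKM in WT and 8.57 and 9.82 FPKM in KO, in a feature that spans 7.503 times the gene and reaches over *Akap9*. Both had KO values below WT values and missed the threshold (log2 fold changes -0.13 and -0.15).

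The later steps given next did not pass the test, and for several of them the groups overlapped. *Msmo1*, the C4-methylsterol oxidase, had 38.7 and 44.6 FPKM in WT and 39.5 and 43.5 FPKM in KO, and *Hsd17b7*, a ketoreductase, 3.11 and 2.76 FPKM in WT and 2.95 and 2.91 FPKM in KO. Each had a log2 fold change of 0.00 to 2 decimals, with a 95% interval of -0.25 to 0.25 for *Msmo1* and -0.34 to 0.34 for *Hsd17b7*. *Sc5d*, a sterol desaturase, had 6.30 and 7.78 FPKM in WT and 7.61 and 7.16 FPKM in KO, also with overlap. The sterol reductase *Tm7sf2* had 19.1 and 18.5 FPKM in WT and 21.2 and 19.9 FPKM in KO, with KO values above WT values. Its feature is merged with *Vps51*, so that its own level is not known. *Dhcr7*, a reductase at the end of the pathway, had 23.6 and 19.7 FPKM in WT and 18.5 and 17.7 FPKM in KO. Its KO values lay below its WT values (log2 fold change -0.25, adjusted p = 0.191 by limma).

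*Nsdhl* and *Ebp* are the X-linked genes of the pathway, and they differed from each other in direction. *Nsdhl*, a sterol dehydrogenase, had 13.7 and 15.4 FPKM in WT and 16.1 and 15.7 FPKM in KO (log2 fold change 0.13, adjusted p = 0.436 by limma). *Ebp*, the sterol isomerase whose promoter is printed with 2 CCAAT boxes (chrX:8185329-8193512), had 17.0 and 16.2 FPKM in WT and 12.2 and 10.9 FPKM in KO. It fell from 16.6 ± 0.536 to 11.6 ± 0.887 FPKM (SD, n = 2); the change on the log2 scale was -0.52 ± 0.10 (SE, adjusted p = 0.0253 by limma), the lowest among the sterol genes. The median log2 fold change of the 428 tested X-linked features was -0.02, and *Xist* had 1.68, 1.81, 1.53 and 1.43 FPKM in WT replicates 1 and 2 and KO replicates 1 and 2. Of the 18 genes from *Acat2* to *Dhcr7*, 3 fell (16.7%, against 5.6% of all tested features) and none rose. None of the 3 passed without the variance trend. A negative log2 fold change was seen in 13 of the 18, against 53.2% of all tested features, and the median was -0.13. The FPKM of the 18 genes summed to 558 and 551 in WT and 494 and 467 in KO. *Fdps* alone made up 23.8% and 23.6% of that sum in WT and 20.9% and 19.3% in KO, and without it the sums were 425 and 421 in WT and 391 and 377 in KO, still lower in both KO libraries.

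The calls of *Fdps*, *Sqle* and *Ebp* rested on KO replicate 2. Without that library their adjusted p values (limma) were 0.0847, 0.0962 and 0.0687, with log2 fold changes of -0.35, -0.37 and -0.44; that of *Sqle* was 0.0696 without WT replicate 1. Without the minimum level they were 0.0575, 0.0541 and 0.0502.

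**Figure D2:**
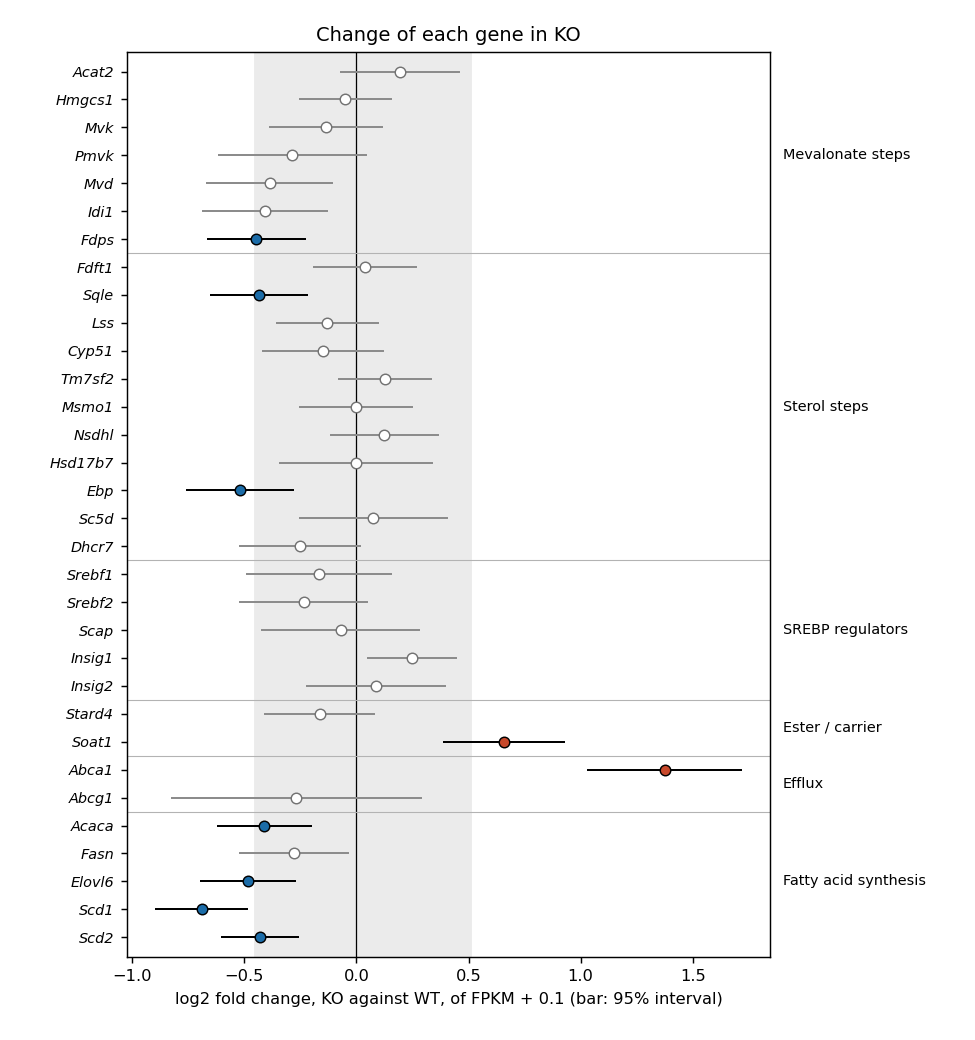
Log2 fold change of KO against WT on the FPKM + 0.1 scale for each of the 32 genes, with the 95% interval from limma as a bar; filled points have an adjusted p under 0.05, and the grey band spans the 10th to 90th percentile of all tested features, -0.45 to 0.51. *Abca1* and *Soat1* lie right of the band, while *Scd1*, *Ebp* and *Elovl6* lie left of it.

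All 5 fatty acid synthesis genes had lower levels in both KO libraries than in either WT library, as 31.7% of all tested features did. Of the 5, 4 passed the test, against 5.6% of all tested features that fell. *Acaca*, acetyl-CoA carboxylase, which makes malonyl-CoA (chr11:84179640-84401848), had 15.7 and 15.4 FPKM in WT and 11.8 and 11.6 FPKM in KO, and fell by 0.41 on the log2 scale (standard error 0.08, adjusted p = 0.0327 by limma). *Fasn*, the fatty acid synthase, had 81.6 and 71.4 FPKM in WT and 65.9 and 60.03 FPKM in KO. Both KO libraries were lower, but its log2 fold change of -0.28 missed the threshold (standard error 0.10, adjusted p = 0.125 by limma). *Elovl6*, which extends palmitate to stearate (chr3:129532386-129638493), had 27.4 and 29.4 FPKM in WT and 19.7 and 20.9 FPKM in KO, and fell by 0.48 on the log2 scale (standard error 0.08, adjusted p = 0.0223 by limma).

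The stearoyl-CoA desaturases put the first double bond into saturated chains, and both fell. *Scd1* (chr19:44394450-44407709) had 23.5 and 22.1 FPKM in WT and 14.1 in each KO library. It fell from 22.8 ± 0.959 to 14.1 ± 0.0294 FPKM (SD, n = 2); the change on the log2 scale was -0.69 ± 0.08 (SE, adjusted p = 0.00813 by limma), the lowest of the 32. *Scd2* (chr19:44293473-44306862), the neighbouring paralog and the main desaturase gene in these cells, had 81.9 and 81.7 FPKM in WT and 61.0 and 60.3 FPKM in KO. It fell by 0.43 on the log2 scale (standard error 0.07, adjusted p = 0.0170 by limma). The paralogs share 4.66% (*Scd1*) and 4.01% (*Scd2*) of their 50-base stretches with genes of their family. The ratio of *Scd2* to *Scd1* within a library was 3.49 and 3.69 in WT and 4.33 and 4.27 in KO, so *Scd2* was the more abundant in every library and its lead was wider in KO.

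Of the 5 fatty acid genes, 4 fell (80%, against 5.6% of all tested features), and without the variance trend only *Scd1* did. All 5 had both KO libraries below both WT libraries, against 31.7% of all tested features, and the median log2 fold change was -0.43. Their summed FPKM was 230 and 219.9 in WT and 172 and 167 in KO, a KO mean of 0.754 of the WT mean, while the same ratio was 0.867 for the 18 sterol genes. Divided by the sterol sum of the same library, the fatty acid sum was 0.412 and 0.399 in WT and 0.349 and 0.357 in KO. With 2 libraries a group, the smallest two-sided p of an exact permutation test is 0.333, so such ratios are given as values. The call of *Acaca* was lost without any 1 of the 4 libraries, with adjusted p values (limma) between 0.0755 and 0.0973, and 52.6% of its 50-base stretches occur in transcripts of *Gm5182*. That of *Elovl6* was lost without KO replicate 1 (adjusted p = 0.0574 by limma).

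**Figure D3:**
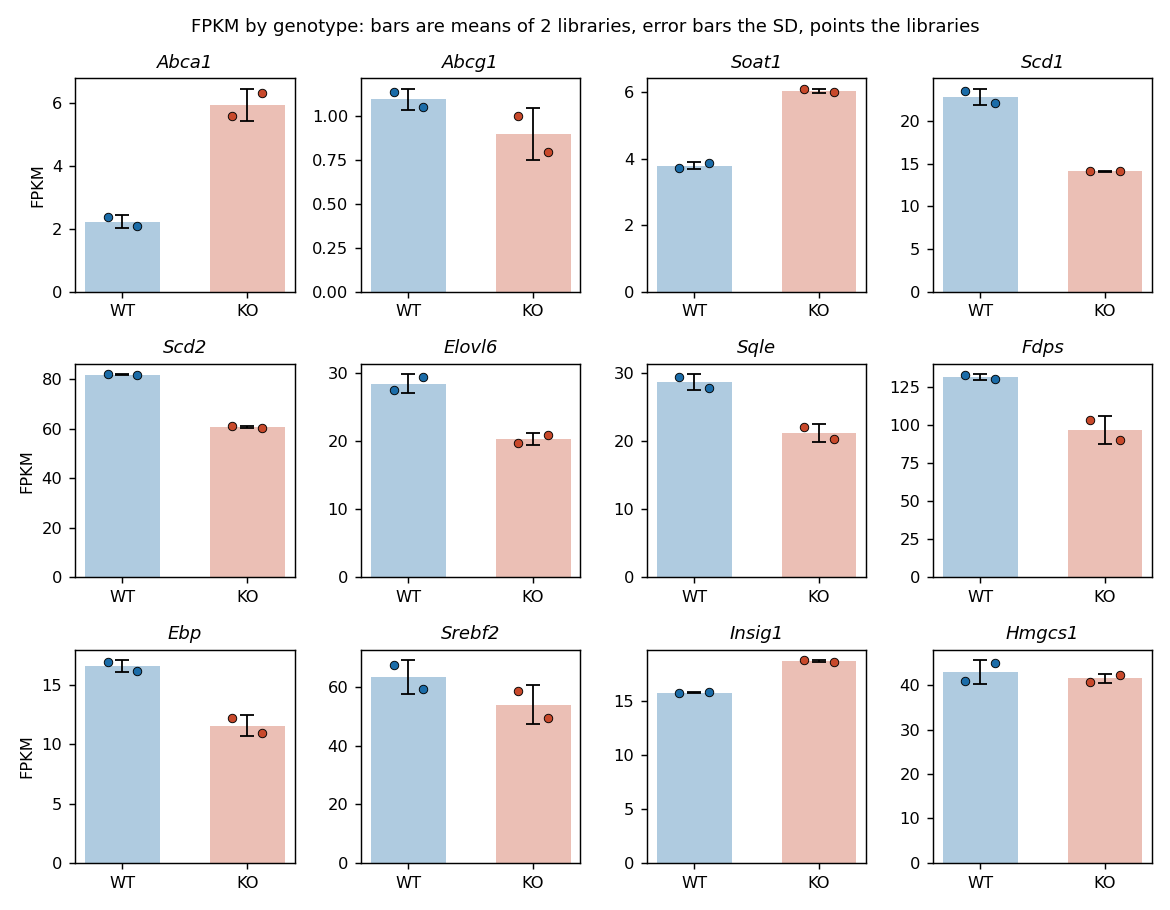
FPKM of 12 of the genes in WT and KO, each panel with its own axis from 0; bars are means of 2 libraries, error bars the SD and points the libraries. *Abca1* and *Soat1* are higher in KO, the desaturases, *Elovl6*, *Sqle*, *Fdps* and *Ebp* are lower, and the *Hmgcs1* points of the groups overlap.

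The 5 regulators, the genes of the SREBPs, of SCAP and of the INSIG proteins, showed no change that passed the test. *Srebf2*, whose product drives cholesterol synthesis, had 67.6 and 59.3 FPKM in WT and 58.6 and 49.3 FPKM in KO (log2 fold change -0.23, standard error 0.11, adjusted p = 0.235 by limma). *Srebf1*, whose product favours fatty acid genes, had 17.4 and 14.6 FPKM in WT and 15.4 and 13.1 FPKM in KO, and its groups overlapped (-0.17, standard error 0.13, adjusted p = 0.446). The *Srebf1* feature spans 5.02 times the annotated gene and reaches over *Rai1*. The ratio of *Srebf2* to *Srebf1* within a library was 3.88 and 4.07 in WT and 3.81 and 3.78 in KO, so *Srebf2* was the more abundant of the pair throughout.

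*Scap*, the escort of the SREBPs, had 13.4 and 11.1 FPKM in WT and 12.8 and 10.5 FPKM in KO, with overlap. *Insig1*, the retention factor that is itself a classical SREBP target, had 15.7 and 15.8 FPKM in WT and 18.8 and 18.6 FPKM in KO. Both KO values were higher, opposite to the lower synthesis genes, and the log2 fold change was 0.25 (standard error 0.08, 95% interval 0.05 to 0.44, adjusted p = 0.105 by limma). Its relative *Insig2* had 6.06 and 6.34 FPKM in WT and 6.04 and 7.21 FPKM in KO, with overlap. The median log2 fold change of the 5 regulators was -0.07.

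Of the genes that export or store sterol, *Abca1* and *Soat1* rose and *Abcg1* did not pass the test; the difference between the changes of *Abca1* and *Abcg1* was not tested. *Abca1*, the pump that loads cholesterol onto apolipoprotein A-I (ENSMUSG00000015243.4, chr4:53030789-53159963), had 2.38 and 2.09 FPKM in WT and 5.59 and 6.32 FPKM in KO. It rose from 2.23 ± 0.199 to 5.95 ± 0.514 FPKM (SD, n = 2), 2.59-fold on the FPKM + 0.1 scale or 1.37 ± 0.14 in log2 (SE, adjusted p = 0.00558 by limma). *Abcg1*, its partner pump that exports cholesterol to larger lipoproteins (chr17:31057694-31117981), had 1.14 and 1.05 FPKM in WT and 0.999 and 0.793 FPKM in KO, so both KO values were below both WT values. Its log2 fold change was -0.27 with a wide 95% interval of -0.82 to 0.29 (standard error 0.23, adjusted p = 0.479 by limma), so a rise of the size of that of *Abca1* lies outside the interval. None of the exon bases of either gene overlap another gene, and none of their 50-base stretches recur elsewhere. The ratio of *Abca1* to *Abcg1* was 2.09 and 1.99 in WT and 5.59 and 7.97 in KO.

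*Soat1*, which esterifies cholesterol for storage in droplets (chr1:156424531-156474328), had 3.72 and 3.87 FPKM in WT and 6.09 and 6.01 FPKM in KO. It rose from 3.80 ± 0.107 to 6.05 ± 0.0629 FPKM (SD, n = 2); the change on the log2 scale was 0.66 ± 0.11 (SE, adjusted p = 0.0187 by limma). *Stard4*, a cytosolic sterol carrier and a known SREBP target, had 7.84 and 8.28 FPKM in WT and 7.03 and 7.34 FPKM in KO, lower in both KO libraries without passing the test (-0.16, adjusted p = 0.327). Set against synthesis, *Abca1* was 0.426% and 0.380% of the summed FPKM of the 18 sterol genes in WT and 1.13% and 1.35% in KO. *Soat1* was 0.667% and 0.703% of that sum in WT and 1.23% and 1.28% in KO. Both shares were higher in each KO library than in either WT library, while synthesis transcripts remained far more abundant than those of efflux in all 4 libraries. When each library was left out, the log2 fold change ranged from 1.29 to 1.46 for *Abca1* and from 0.63 to 0.69 for *Soat1*. That of *Scd1* ranged from -0.73 to -0.65 and that of *Scd2* from -0.44 to -0.42.

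The wider lipid pathway was read from a list of 67 other genes, of which 66 were in the files and 59 were tested. Of these, 3 rose (5.08%, against 6.85% of all tested features), 2 fell (3.39%, against 5.6%) and 54 did not pass, and the median log2 fold change was 0.02. Neither share was above that of all tested features, so the 5 genes are given as values only. The genes that rose were *Gramd1a*, a carrier of cholesterol from the plasma membrane to the endoplasmic reticulum, *Npc2*, which hands cholesterol out of lysosomes, and *Fabp5*, a fatty acid binding protein. *Gramd1a* had 9.66 and 8.39 FPKM in WT and 19.0 and 16.7 FPKM in KO (log2 fold change 0.98, adjusted p = 0.00789 by limma). *Npc2* had 28.2 and 26.9 FPKM in WT and 44.1 and 40.3 FPKM in KO (0.61, adjusted p = 0.0112). *Fabp5* had 18.8 and 19.5 FPKM in WT and 25.2 and 24.7 FPKM in KO (0.38, adjusted p = 0.0332).

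The genes that fell were *Me1* and *Mcat*. *Me1*, the malic enzyme that supplies NADPH for fatty acid synthesis, had 17.2 and 19.3 FPKM in WT and 8.81 and 10.3 FPKM in KO (log2 fold change -0.93, adjusted p = 0.00930 by limma). *Mcat*, the malonyl transferase of the mitochondrial route, had 17.1 and 16.3 FPKM in WT and 12.8 and 12.9 FPKM in KO (-0.37, adjusted p = 0.0431). No receptor for lipoprotein uptake is among the 32 genes. Among the other genes, *Lrp8*, an apolipoprotein E receptor, had 4.29 and 3.98 FPKM in WT and 3.01 in each KO library (-0.44, adjusted p = 0.0737 by limma), and *Scarb1*, the receptor of high-density lipoprotein, 10.7 and 7.65 FPKM in WT and 7.55 and 7.24 FPKM in KO (-0.29, adjusted p = 0.314). These receptors were picked after their values were seen, and neither passed the test.

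**Figure D4:**
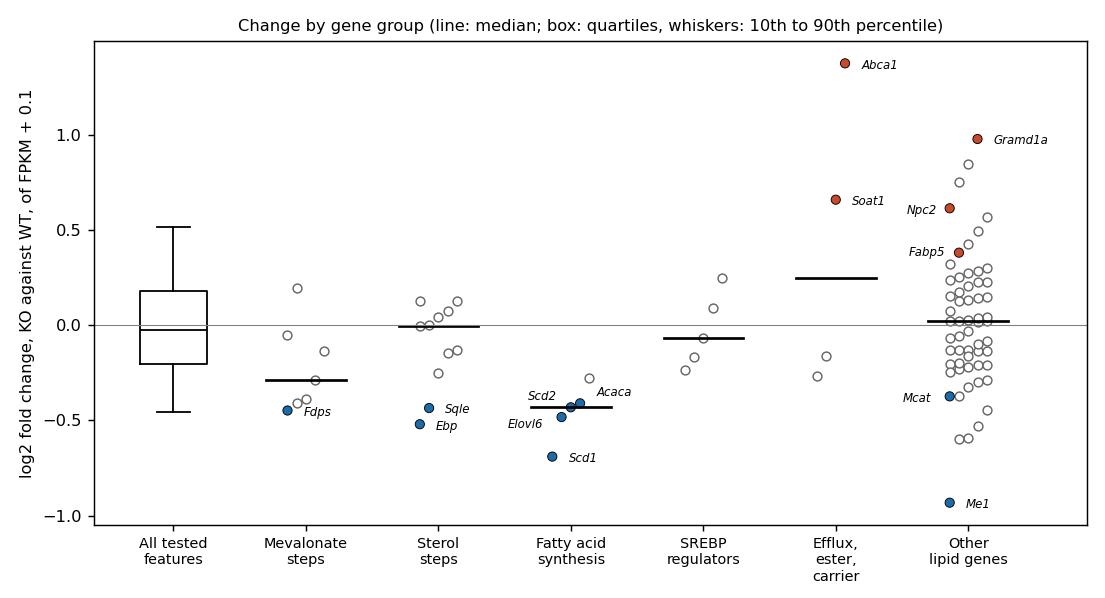
Log2 fold change of KO against WT for each gene by group, on the FPKM + 0.1 scale, beside a box of all 12990 tested features (quartiles, whiskers at the 10th and 90th percentile); horizontal lines are medians and filled points have an adjusted p under 0.05. The fatty acid median lies at -0.43 and those of the sterol steps and of the other lipid genes near 0.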

How the data were processed

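The authors isolated total RNA with Trizol, removed ribosomal RNA, and prepared Illumina libraries; per the labels, reads were aligned to GRCm38 (mm10) with TopHat 2.1.1 and Bowtie2 2.3.0, and FPKM was estimated with Cufflinks 2.2.1. The deposited FPKM, 1 table per library, were used as they are. Strandedness and annotation release are not given in the sources used here. Features with a mean of at least 0.5 FPKM were tested with limma 3.58.1 in R 4.3.3 (variance trend, genotype as the only term) on log2(FPKM + 0.1), with Benjamini-Hochberg adjustment over the 12990 tested features at 0.05. Fold changes on that scale understate the change of low genes. In place of depth, which FPKM do not give, precision was judged from the spread between libraries. The steps were tested on simulated data. The members, gene lists and motifs were chosen with earlier results of these data known. Every member was described; full statistics were given for those that passed and for *Abca1*, *Abcg1*, *Srebf1*, *Srebf2*, *Insig1*, *Hmgcs1*, *Sqle*, *Fasn* and *Scd2*, and of other lipid genes the 4 with the smallest adjusted p in each direction were named where they passed. Starts in the files were counted from 0 and 1 was added. Overlaps and shared 50-base stretches were computed from the GRCm38 annotation and transcripts.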

Additional observations from a re-analysis of the deposited data

Results flagged for a closer look

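Of the other lipid genes, 7 lay under the minimum of 0.5 mean FPKM and entered no test, and 5 of them had both KO libraries above both WT libraries, as 1422 of all 6655 features under the minimum did (21.4%). *Nr1h3*, the gene of LXRα, had 0.154 and 0.123 FPKM in WT and 0.479 and 0.488 FPKM in KO, a KO mean of 0.484 FPKM, and with no minimum its log2 fold change was 1.30 (adjusted p = 0.0543 by limma). *Cyp27a1*, which makes an oxysterol, had a mean of 0.323 FPKM in WT and 0.569 FPKM in KO. The transporter genes *Abca5* and *Abcg4* had KO means of 0.225 and 0.0561 FPKM against WT means of 0.149 and 0.00652 FPKM, and the sterol carrier gene *Gramd1c* a KO mean of 0.164 FPKM against 0.128 FPKM in WT. None of the 5 passed 0.05 with no minimum. The other LXR gene, *Nr1h2*, lay above the minimum and had 46.0 and 41.5 FPKM in WT. In KO it had 53.6 and 43.8 FPKM, with overlap (log2 fold change 0.15, adjusted p = 0.453 by limma). With 2 libraries a group, no library could be tested as standing apart from its group.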

How the results depend on the processing

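*Abca1*, *Soat1* and *Scd1* passed under all 14 alternatives with a test, the log2 fold change of *Abca1* ranging from 1.103 to 1.46; *Abcg1* passed in none of its 13. The count of genes lower in KO was 3 with no minimum level, where *Fdps*, *Sqle*, *Ebp* and *Acaca* dropped out, 1 with no variance trend, where *Scd1* remained, and 4 to 7 when each library was left out, lowest without KO replicate 2; the count higher in KO was 2 in each of these. Rescaling to features with a symbol left 5 lower (15.6%, against 3.99% of all tested features) and 2 higher (6.25%, against 8.28%). It moved the fatty acid median to -0.36, and turned 890 higher and 728 lower calls over all features into 1076 and 518. With the replicate number as a block, 12 genes were lower (37.5%, against 17.3% of all tested features) and 4 higher (12.5%, against 13.9%). In either direction, 4052 of all tested features passed (31.2%). *Acat2* and *Insig1* were then also higher and *Mvd*, *Idi1*, *Dhcr7*, *Srebf2* and *Fasn* also lower. The labels do not say that equal numbers share a culture. The difference between replicates correlated between WT and KO at r = 0.07 (rho = 0.39) over all tested features and r = 0.56 (rho = 0.61) over the 32 genes. Log2 ratios of FPKM under 0.15 piled up in 1 bin between equal numbers (93 and 149 features) more than between the other pairs (28 to 37), a hint from the data that equal numbers share some processing. Within libraries numbered 1 and 2, an alternative added after seeing the data, the log2 ratio of *Abca1* was 1.20 and 1.55.

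Signs turned only for genes near 0 that did not pass. With quantile normalization *Msmo1* was at 0.0154, with median-of-ratios scaling *Msmo1* at 0.0044 and *Hsd17b7* at 0.0073, and with rescaling *Hmgcs1* at 0.0242, *Msmo1* at 0.0698, *Hsd17b7* at 0.0707 and *Scap* at 0.0039. Leaving out each library gave -0.106 to 0.0996 for *Msmo1*, -0.0844 to 0.0841 for *Hsd17b7*, -0.114 to 0.0161 for *Hmgcs1*, -0.210 to 0.0731 for *Scap*, -0.0750 to 0.226 for *Sc5d*, -0.0312 to 0.112 for *Fdft1* and -0.0376 to 0.215 for *Insig2*. The cause of these changes was not tested. With 2 libraries a group and unknown depth, small changes such as that of *Hmgcs1* were not detectable.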
